A study of Mus musculus with 6 samples.

Results

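Proteins that copy the genome are made from a group of genes whose transcripts were followed here in mouse ovarian granulosa cells. The group holds 42 DNA replication and S phase genes, chosen by symbol from what is known of their function: origin recognition and loading, the MCM helicase, origin firing, the sliding clamp and its loader, the polymerases and primase, single-strand binding and flap joining, nucleotide supply, G1/S control, and chromatin behind the fork. Of these, 41 had a probe set naming only that gene, among 18194 genes in all, and Chaf1a was not analysed here. The probe set with the highest mean over the arrays stood for each gene. A mean of at least log2 6, an intensity of 64, was reached by 40 of the members and by 11153 of all genes. Tyms, the thymidylate synthase gene, stayed below it, with wild type intensities of 36 at 0 h, 21 at 2.5 h and 26 at 4 h and knockout intensities of 30, 18 and 21.

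The cells came from 23-day-old wild type mice and from mice of the same age that carried an ERK1 knockout together with ERK2 fl/fl;Cyp19CRE, called knockout below. ERK1 and ERK2 are MAP kinases that act downstream of growth factor receptors. The Cre is named for Cyp19, the aromatase gene, whose expression marks granulosa cells of growing follicles, while the ERK1 knockout is not labelled as limited to a cell type. To make follicles grow, all mice were first given equine chorionic gonadotropin (eCG, 5 IU) for 48 h. Human chorionic gonadotropin (hCG, 5 IU), which acts on the luteinizing hormone receptor, was then given for 2.5 h or 4 h, and the samples called 0 h received none. There was 1 array for each genotype and time, 6 in all, and how many mice gave RNA to each is not given in the sources used here. No pair of arrays therefore has a replicate error, and differences between pairs are described by size only, with no p-value.

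Replication starts when the origin recognition complex, with Cdc6 and Cdt1, loads the ring-shaped MCM helicase on DNA in G1. In S phase the helicase is fired by Cdc45 and the GINS complex, and polymerases then copy both strands, held on DNA by the clamp PCNA. Many of these genes are E2F targets, transcribed as cells pass from G1 into S phase. Granulosa cells of growing follicles divide, and the ovulatory surge of luteinizing hormone is known to end that division as the cells luteinize.

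Promoter sequence was matched for 33 of the 41 members in a RefSeq table of assembly GRCm38.p6. Of the members' windows of 300 bases (250 before the start site, 50 after), 12 of 39 held an E2F word, read as TTTCCCGC, TTTGGCGC, TTTCGCGC or TTTGCCGC on either strand, a share of 30.8%. Among all 32851 windows the share was 2.26%, and among windows with a GC box (GGGCGG) 4.23%. CCAAT on either strand stood in 59% of the members' windows and 37.4% of all. The 250 bases before the start site are shown for 4 members on which the results below turn. Mcm6 holds 3 E2F words that partly overlap, Pola1 was among the members with the largest difference and holds 1, Rpa1 had the largest difference, and Pcna had the largest difference of the 4 members above 0 h in wild type at 4 h. No E2F word was found in these windows of Rpa1 and Pcna, which says only that these letters are not there. All 4 genes lie on the minus strand, the sequences run 5′ to 3′ in the direction of transcription, and capitals mark E2F words and CCAAT boxes.
Mcm6, chr1:128359706-128359955: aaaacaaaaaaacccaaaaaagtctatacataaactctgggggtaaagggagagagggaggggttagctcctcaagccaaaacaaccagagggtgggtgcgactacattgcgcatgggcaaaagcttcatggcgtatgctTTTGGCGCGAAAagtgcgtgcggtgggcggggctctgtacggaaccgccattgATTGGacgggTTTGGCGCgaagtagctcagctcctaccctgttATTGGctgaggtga
Pola1, chrX:93632156-93632405: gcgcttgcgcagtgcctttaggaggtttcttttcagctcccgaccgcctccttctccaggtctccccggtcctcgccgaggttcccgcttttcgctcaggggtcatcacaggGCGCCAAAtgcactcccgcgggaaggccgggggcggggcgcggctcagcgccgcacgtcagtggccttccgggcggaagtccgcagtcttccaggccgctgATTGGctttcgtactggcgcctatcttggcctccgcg
Rpa1, chr11:75348384-75348633: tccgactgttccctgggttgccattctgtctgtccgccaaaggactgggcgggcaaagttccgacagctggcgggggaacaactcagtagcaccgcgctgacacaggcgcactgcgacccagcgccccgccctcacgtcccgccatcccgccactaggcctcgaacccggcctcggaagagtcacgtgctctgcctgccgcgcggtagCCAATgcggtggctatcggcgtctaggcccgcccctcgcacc
Pcna, chr2:132253181-132253430: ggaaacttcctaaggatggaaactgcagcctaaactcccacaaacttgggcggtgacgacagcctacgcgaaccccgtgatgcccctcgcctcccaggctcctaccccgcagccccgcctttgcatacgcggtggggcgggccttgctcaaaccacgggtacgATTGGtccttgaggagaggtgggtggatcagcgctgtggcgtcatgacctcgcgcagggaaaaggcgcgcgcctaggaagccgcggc

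The E2F words found in the windows of 12 members numbered 18, of which 11 lay wholly before the start site, and 5 members held several. As examples, 4 of the words are given with 10 bases on each side, the word in capitals, in the direction of transcription. How alike the bases on each side are was not compared. In Mcm5 and Rfc3 a second word overlaps or follows within these bases.
Cdc6, chr11:98908003-98908030, plus strand: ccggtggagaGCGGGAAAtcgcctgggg
Mcm5, chr8:75109346-75109373, plus strand: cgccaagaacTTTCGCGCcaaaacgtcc
Orc1, chr4:108579417-108579444, plus strand: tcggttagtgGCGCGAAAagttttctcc
Rfc3, chr5:151651201-151651228, minus strand: cgtcgcacgcTTTCGCGCtcgcgggaaa

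On the 6 arrays, all 11 measured granulosa markers, such as the follicle-stimulating hormone receptor gene Fshr, were over the floor, and Cyp19a1 was not analysed here. The genotype of each array rests on its label. The summed intensity of the granulosa markers was lowest on the wild type array at 4 h, 77994, against 100934 to 153494 on the other arrays. All 11 were lower there than in wild type at 0 h, 5 of them by 2-fold or more, beside 9.11% of all genes. The sizes were uneven: Inhbb went from 21559 to 2518 and Inha from 31030 to 27881. Oocyte markers summed to 24898, 15355 and 16492 in wild type at 0 h, 2.5 h and 4 h and to 45867, 19461 and 16812 in the knockout. All 15 over the floor were lower than at 0 h at both times in both genotypes. Their medians were -0.71 and -0.53 in wild type and -1.22 and -1.44 in the knockout. The part of oocyte RNA in the members' differences from 0 h was not tested. RNA quality was read as the Gapdh signal near the 3′ end over that near the 5′ end. The ratio was 4.79 in wild type and 5.21 in the knockout at 0 h, and 3.55 to 4.24 on the arrays after hCG. For actin it was 3.18, 2.56 and 2.86 in wild type at 0 h, 2.5 h and 4 h and 3.30, 3.11 and 3.37 in the knockout. The Gapdh ratio thus differed between 0 h and hCG, and its part in the differences from 0 h was not tested. In RNA of a whole preparation, fewer cells of a type and less RNA per cell cannot be told apart.

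In wild type cells most replication genes were lower after hCG. At 4 h the role medians ran from -0.71 for polymerases and primase, -0.61 for the clamp and its loader and -0.60 for single-strand binding and flap joining to -0.27 for origin loading and -0.16 for origin firing, a difference between roles that was not tested. At 4 h, 36 of 40 members lay below their 0 h value, with a median log2 difference of -0.36 and a range from -1.02 for Rpa1 to 0.59 for Pcna. Of all 11153 genes, 66.4% were below 0 h with a median of -0.21, so part of the members' difference is shared by the genes at large. Relative to that median, 29 of 40 members were lower and their median was -0.16. At 2.5 h, 35 of 40 members lay below 0 h (median -0.26), beside 72.2% of all genes (median -0.22), which is close to the background. The range within a gene was narrow: the brightest of the 6 arrays stood over the dimmest by a median of 1.49-fold in the members and 1.60-fold in all genes, and 37 of 40 members stayed under 2-fold, beside 72.5% of all genes. The lowest of the 6 values was on the wild type 4 h array for 28 of 40 members and for 35.8% of all genes. After cyclic loess, a further normalization between arrays, these were 22 of 40 and 29%, and with each array centred on its median 16 of 40 and 24.1%.

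**Figure D1:**
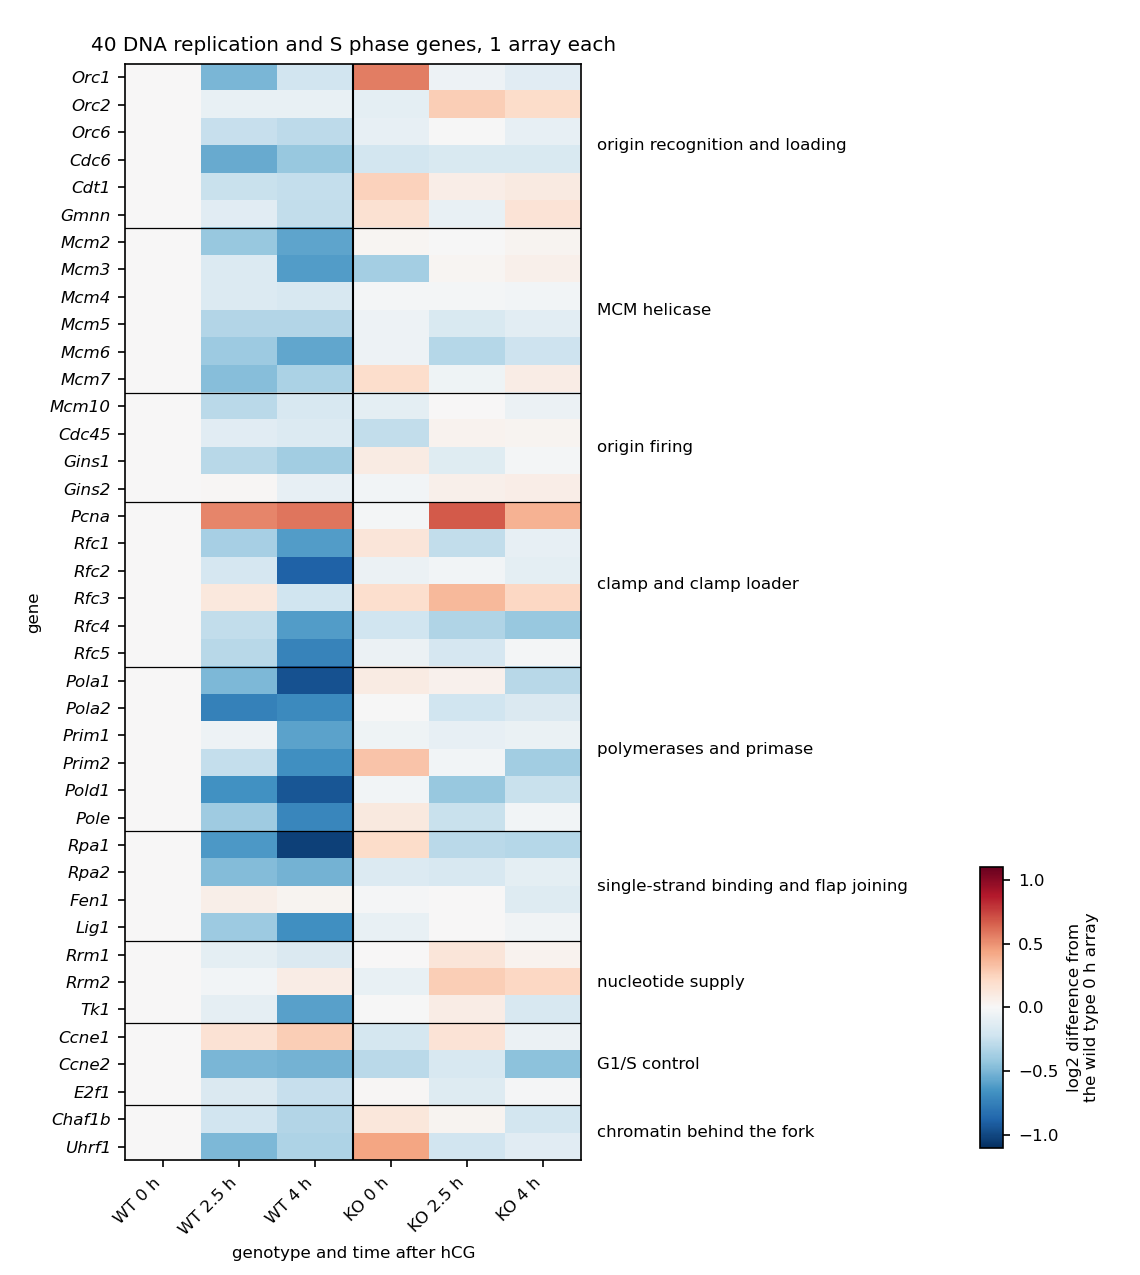
Log2 difference of each of 40 members from the wild type 0 h array, with genes in lines grouped by role and arrays in columns (WT, wild type; KO, knockout; 1 array each, no replicates). Blue is lower and red higher. The wild type 4 h column is darkest blue at Rpa1, Pola1, Pold1 and Rfc2, and Pcna is red in both genotypes after hCG. Taking out the shift of all genes, -0.21 in wild type at 4 h, turns the sign there in Orc2, Mcm4, Mcm10, Cdc45, Gins2 and Rrm1.

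A size rule of at least 2-fold, with the brighter array at or over the floor, was met by 1 member in 1 of 9 comparisons between pairs of arrays. That member was Rpa1, lower in wild type at 4 h than at 0 h, beside 14% of all genes in that comparison and 9.11% that were lower. Relative to all genes (-0.82) and after cyclic loess (-0.84) it was under 2-fold. In the other 8 comparisons 0 members met the rule. The share of all genes that met it was 4.3% for wild type at 2.5 h against 0 h and 3.05% at 4 h against 2.5 h. In the knockout it was 6.92% at 2.5 h and 8.44% at 4 h against 0 h, and 0.906% at 4 h against 2.5 h. Between the genotypes it was 1.53% at 0 h, 4.2% at 2.5 h and 8.52% at 4 h. With the rule at 1.5-fold, 14 members were lower in wild type at 4 h, beside 25.2% of all genes, and 1, Pcna, was higher, beside 8.69%. The 14 were all 6 polymerase and primase genes, the clamp loader genes Rfc1, Rfc2, Rfc4 and Rfc5, and Rpa1, Lig1, Mcm3 and Tk1. At that size Pola2, Pold1 and Rpa1 were already lower at 2.5 h, beside 13.1% of all genes, and Rfc2 was lower at 4 h than at 2.5 h, beside 7.85%.

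**Figure D2:**
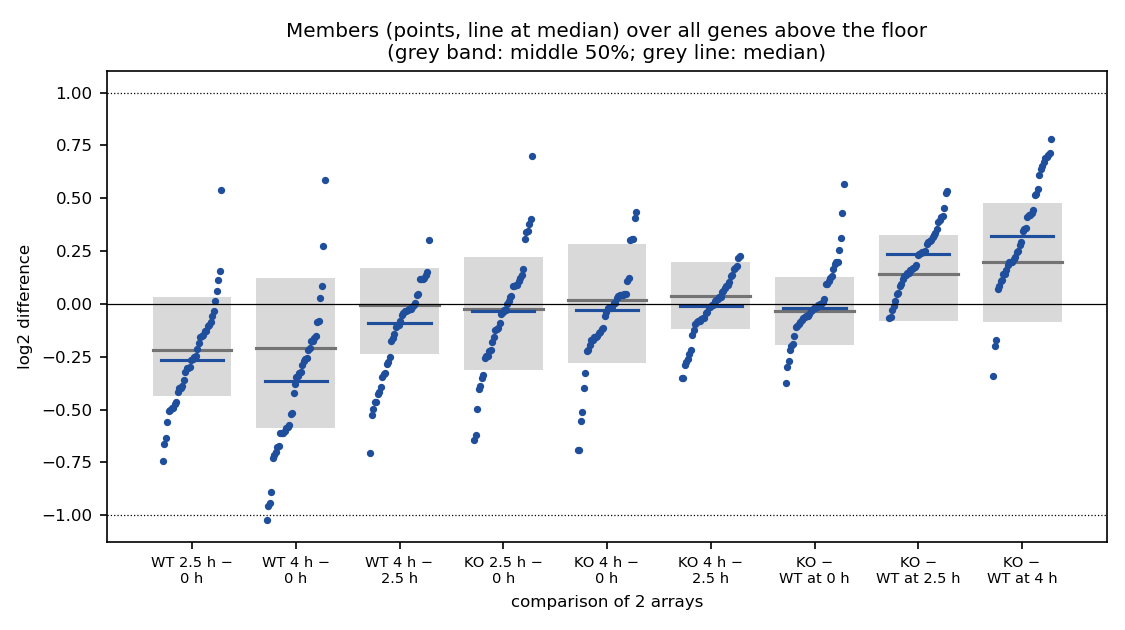
Log2 differences of the 40 members (points, blue line at their median) in each of 9 comparisons of a pair of arrays, over the middle 50% of all 11153 genes (grey band) and their median (grey line). Dotted lines mark 2-fold. The members' median is -0.36 beside -0.21 for all genes in wild type at 4 h, and 0.32 beside 0.20 for the knockout minus wild type at 4 h.

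Transcripts of the origin recognition and loading proteins were lower by small steps. All 6 lay below 0 h in wild type at 4 h, with a median of -0.27, which relative to all genes was -0.06 with 4 of 6 lower. Cdt1, which brings the helicase to the origin and was the brightest of this role, read 1633, 1378 and 1362 in wild type at 0 h, 2.5 h and 4 h and 1946, 1719 and 1746 in the knockout. All 3 knockout values were above all 3 wild type values, a pattern whose share among all genes was not counted. At both times after hCG the knockout was above wild type in 55.9% of all genes. Gmnn, encoding geminin, the inhibitor of Cdt1, read 1164, 1065 and 964 in wild type and 1307, 1103 and 1290 in the knockout. Here the knockout value at 2.5 h lay between wild type values. Cdc6, the ATPase that acts with Cdt1, read 384, 261 and 287 in wild type and 334, 342 and 341 in the knockout. The wild type value at 0 h was therefore the highest of the 6 and the knockout values hardly varied.

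Among the origin recognition genes, Orc1 stood apart. Its intensities were 135, 95 and 117 in wild type and 200, 130 and 124 in the knockout, so the knockout array at 0 h was the highest. The knockout at 4 h was lower than at 0 h by a log2 difference of -0.69 by this probe set, while the second probe set read 76, 83 and 74 in wild type and 79, 91 and 81 in the knockout, a difference of 0.04. Orc2 read 295, 278 and 279 in wild type and 274, 356 and 339 in the knockout, and its knockout arrays after hCG were the highest of the 6. Orc6 read 460, 386 and 377 in wild type and 431, 459 and 433 in the knockout. Both encode subunits of the same complex as Orc1, and both were lower after hCG in wild type and higher in the knockout, though Orc2 was higher in wild type too once the shift of all genes was taken out (0.13 at 4 h). The knockout part was less firm: a second probe set of Orc2 read 321, 310 and 295, and Orc6 at 4 h was 0.0067 above 0 h and -0.013 relative to all genes.

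The helicase genes were lower together in wild type. All 6 subunit genes lay below 0 h at 4 h with a median of -0.46, and 5 of 6, all but Mcm4, remained lower relative to all genes (median -0.25). Mcm7, the brightest of them, read 5325, 3854 and 4187 in wild type and 6104, 5151 and 5644 in the knockout. Mcm2 read 2099, 1570 and 1403 in wild type and 2131, 2090 and 2141 in the knockout. The 3 knockout values of Mcm2 thus lay close to the wild type value at 0 h, and the wild type values after hCG were below all of them. Mcm3 read 1181, 1065 and 773 in wild type and 910, 1201 and 1230 in the knockout, so its order over time was opposite in the genotypes. All of its 4 probe sets over the floor had this order at 4 h against 0 h. Mcm5 read 2164, 1733 and 1726 in wild type and 2080, 1921 and 2000 in the knockout. Mcm6, whose promoter with 3 E2F words is shown above, read 2117, 1607 and 1422 in wild type and 2037, 1706 and 1809 in the knockout. By these probe sets both were lower after hCG in each genotype, and by less in the knockout. The second probe set of Mcm5 was higher after hCG in the knockout (661, 764 and 780), and that of Mcm6 had a log2 difference of -0.56 there at 2.5 h and of -0.38 in wild type. Mcm4 read 1779, 1601 and 1577 in wild type and 1754, 1753 and 1738 in the knockout, but its second probe set was lower after hCG in the knockout (1260, 913 and 942).

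Genes for the proteins that fire the helicase differed little. Their median in wild type at 4 h was -0.16, which turns to 0.04 relative to all genes. Gins1, a GINS subunit and the brightest of this role, read 535, 434 and 411 in wild type and 571, 489 and 526 in the knockout. Gins2, of the same complex, read 344, 347 and 324 in wild type and 336, 358 and 362 in the knockout. Mcm10, which stimulates the helicase, read 474, 386 and 420 against 440, 474 and 453. Cdc45, the helicase's partner at the fork, read 298, 273 and 268 in wild type and 247, 306 and 305 in the knockout. For Cdc45 the knockout 0 h array was the lowest of the 6.

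The clamp and its loader went in opposite directions. Pcna, the sliding clamp, read 5591, 8131 and 8387 in wild type and 5508, 8936 and 7308 in the knockout. All 4 arrays after hCG were above both arrays at 0 h, with wild type log2 differences of 0.54 and 0.59 and knockout differences of 0.70 and 0.41. Pcna has 1 probe set. The loader genes, which encode the ring that opens the clamp, were lower in wild type at 4 h by -0.22 to -0.89. Rfc2 read 872, 767 and 471 in wild type and 833, 856 and 810 in the knockout, so the wild type 4 h array alone was low. Its other probe sets over the floor gave -1.23 and -1.03 for wild type at 4 h. Rfc5 read 483, 391 and 291 against 462, 424 and 475, with the same array low. Rfc1 read 600, 467 and 393 against 658, 498 and 564. Rfc4 read 538, 447 and 352 in wild type and 463, 427 and 404 in the knockout, and was lower after hCG in both, though its second probe set was level in the knockout (313, 316 and 308). Rfc3, the dimmest of the loader genes, read 144, 156 and 124 in wild type and 164, 184 and 169 in the knockout.

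Polymerase and primase genes had the lowest median of any role in wild type at 4 h. It was -0.71 with 6 of 6 below 0 h, and -0.50 with 6 of 6 below relative to all genes. Pold1, the catalytic subunit of the lagging strand polymerase delta and the brightest of these, read 1107, 699 and 577 in wild type and 1085, 829 and 934 in the knockout. Both genotypes began level, and the wild type 4 h array was the lowest. Pola1, the catalytic subunit of polymerase alpha, read 343, 244 and 177 in wild type and 366, 354 and 278 in the knockout. Pola2, its partner subunit, read 545, 325 and 335 against 544, 467 and 488. For Pola2 most of the difference in wild type was present by 2.5 h, whereas Pola1 was lower again at 4 h.

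The primase genes, whose products lay the RNA primers, differed in timing. Prim1 read 654, 628 and 436 in wild type and 632, 616 and 623 in the knockout, so only the wild type 4 h array was low. Prim2 read 316, 264 and 198 in wild type and 392, 310 and 243 in the knockout, lower after hCG in both genotypes with log2 differences at 4 h of -0.67 and -0.69. Pole, the catalytic subunit of the leading strand polymerase epsilon, read 411, 314 and 250 against 443, 347 and 403. In the knockout its 4 h value was nearer to 0 h than its 2.5 h value was.

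Rpa1 had the largest difference of any member. It encodes the large subunit of the protein that coats single-stranded DNA, and read 3671, 2367 and 1805 in wild type and 4218, 2991 and 2957 in the knockout. The wild type arrays descended with time and the knockout arrays levelled between 2.5 h and 4 h. The log2 difference from 0 h was -0.63 at 2.5 h and -1.02 at 4 h in wild type and -0.50 and -0.51 in the knockout. A second probe set read 1034, 740 and 565 in wild type and 1235, 869 and 909 in the knockout, and gave -0.87 for wild type at 4 h, under 2-fold. Rpa2, the middle subunit, read 828, 596 and 579 in wild type and 745, 731 and 770 in the knockout. Lig1, the ligase that seals Okazaki fragments, read 1593, 1211 and 996 in wild type and 1503, 1595 and 1551 in the knockout. By these probe sets the wild type arrays after hCG were the lowest of the 6 for both genes, while the second probe set of Rpa2 was lower after hCG in the knockout too (208, 188 and 166). Fen1, the flap endonuclease and the brightest of this role, read 10672, 11131 and 10871 against 10573, 10678 and 9647. Its second probe set read 369, 297 and 317 in wild type and 284, 393 and 372 in the knockout. Those probe sets of Fen1 differ in sign in wild type at 4 h, 0.03 against -0.22.

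**Figure D3:**
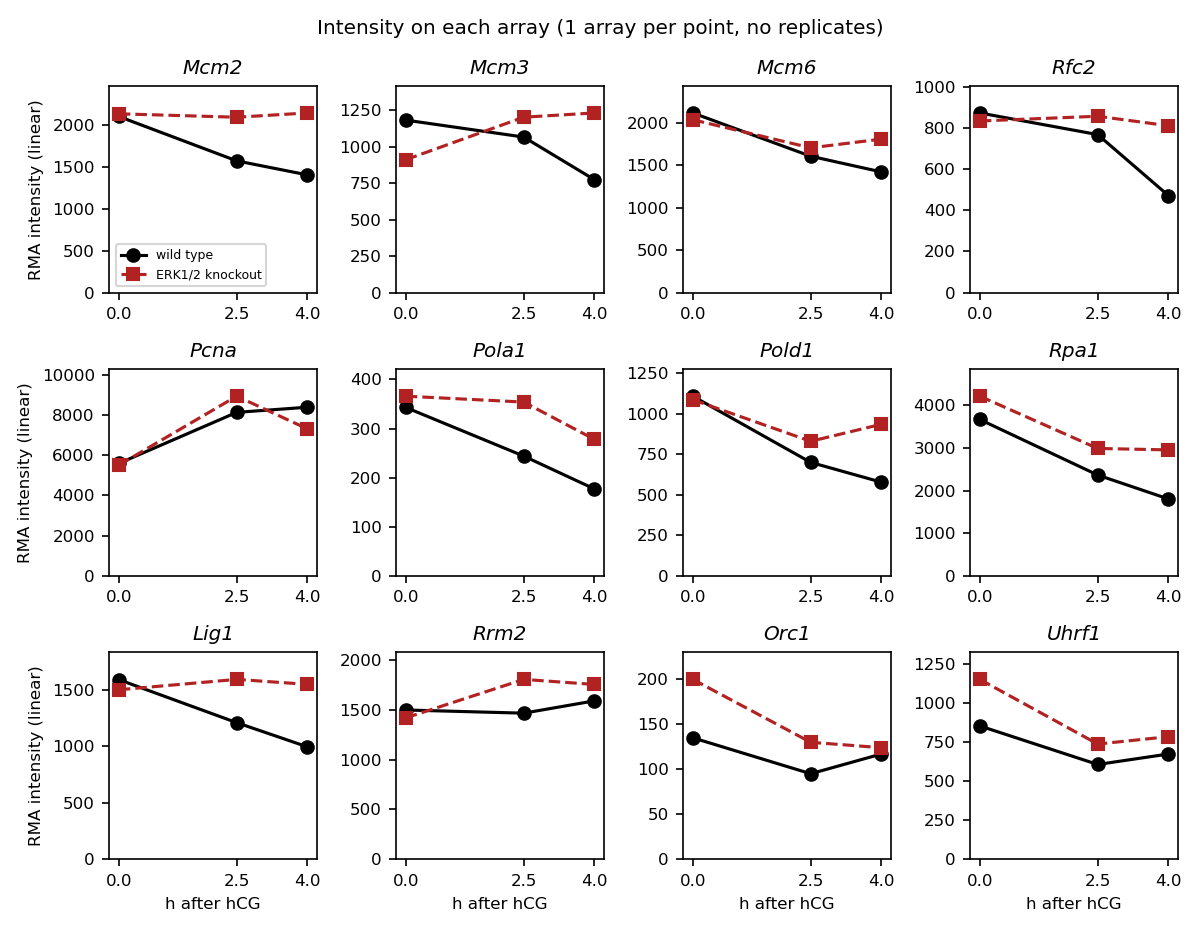
Deposited intensity (linear, from 0) of 12 members at 0 h, 2.5 h and 4 h after hCG in wild type (black circles) and ERK1/2 knockout (red squares); each point is 1 array and lines join the arrays of a genotype. Rpa1 goes from 3671 to 1805 in wild type and from 4218 to 2957 in the knockout, and Pcna is above its 0 h value on all 4 arrays after hCG.

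Nucleotide supply and G1/S genes held members both above and below their 0 h value. Rrm2, the small subunit of ribonucleotide reductase and the brightest of its role, read 1501, 1469 and 1593 in wild type and 1422, 1809 and 1758 in the knockout. Rrm1, the large subunit, read 1275, 1186 and 1142 in wild type and 1275, 1400 and 1310 in the knockout. By these probe sets the knockout arrays after hCG were above all wild type arrays, but not by the second ones. The second probe set of Rrm2 read 462 in wild type and 455 in the knockout at 4 h, and that of Rrm1 read 458 in wild type at 0 h and 395 in the knockout at 4 h. Tk1, the thymidine kinase of the salvage pathway, read 294, 274 and 194 in wild type and 293, 311 and 260 in the knockout. Ccne1, cyclin E1, which drives entry into S phase, read 511, 570 and 618 in wild type and 448, 567 and 488 in the knockout. It was higher after hCG in wild type, as its second probe set was (125, 128 and 147). Ccne2, the related cyclin E2, was lower: 280, 198 and 195 in wild type and 228, 248 and 205 in the knockout. The transcription factor gene E2f1 was dim and flat, at 135, 121 and 113 against 136, 122 and 134.

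Chromatin genes were lower after hCG in both genotypes, as other members were, such as Prim2 and Rpa1. Uhrf1, which recruits the maintenance DNA methyltransferase to new DNA, read 853, 606 and 673 in wild type and 1151, 737 and 784 in the knockout. The knockout array at 0 h was the highest, as it was for 13 of 40 members, Orc1 and Chaf1b among them, and for 24% of all genes. On that array the oocyte markers were also highest, with 15 of 15 over the floor above the wild type at 0 h and a median log2 difference of 0.89. Their part in the values of those 13 members was not tested. Chaf1b, the middle subunit of the chromatin assembly factor CAF-1, read 226, 195 and 181 in wild type and 246, 231 and 196 in the knockout. It was lower after hCG in both genotypes.

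In the knockout the members' median difference from 0 h was smaller than in wild type, and members lay on both sides of 0 h. At 2.5 h, 23 of 40 lay below 0 h (median -0.03), beside 52.3% of all genes (median -0.02). At 4 h, 24 of 40 lay below (median -0.03), beside 48% of all genes (median 0.02). Relative to the median of all genes, 22 of 40 members were lower at 2.5 h and 26 of 40 at 4 h (medians -0.0087 and -0.05). In wild type those counts were 23 and 29. After cyclic loess 24 and 28 members were below 0 h in the knockout, and 25 and 30 in wild type. Much of the contrast in counts between the genotypes thus went with the shift of all genes. In 8 of 40 members both wild type arrays after hCG were below 0 h and both knockout arrays above it. That is close to the background, 15.5% of all genes. The highest of the 6 values was on the knockout array at 0 h for 13 members, beside 24% of all genes. In 2 roles every member was below 0 h at each time: the 6 polymerase and primase genes (medians -0.28 and -0.19) and the 2 chromatin genes (-0.37 and -0.44). At 1.5-fold, Orc1 and Uhrf1 were lower and Pcna higher at 2.5 h, and Orc1 and Prim2 were lower at 4 h. All genes at that size made up 12.2% lower and 7.63% higher at 2.5 h and 11.9% lower at 4 h.

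Before hCG the members' median hardly differed between the genotypes, while single members ranged from -0.38 for Mcm3 to 0.57 for Orc1. At 0 h, 24 members were below wild type in the knockout, 15 above and 1 equal, with a median of -0.02 beside -0.03 for all genes, of which 56.1% were below. At 2.5 h, 36 of 40 were above wild type (median 0.23; 66.7% of all genes, median 0.14), and at 4 h 37 of 40 (median 0.32; 68.2%, median 0.20). Both times were above wild type in 35 members, beside 55.9% of all genes. Relative to the shift of all genes, 28 of 40 members were higher in the knockout at 2.5 h and 29 of 40 at 4 h, with medians of 0.09 and 0.12. By role the medians at 4 h were 0.60 for polymerases and primase, 0.53 for single-strand binding and flap joining, 0.48 for the clamp and its loader and 0.39 for the helicase. Relative to all genes these were 0.40, 0.33, 0.29 and 0.19. The other roles were at or near the shift of all genes: origin loading was 0.26 (0.07 relative to all genes), nucleotide supply 0.20 (0.00097), origin firing 0.17 (-0.02), chromatin 0.17 (-0.03) and G1/S control 0.07 (-0.12). At 1.5-fold, 9 members were higher in the knockout at 4 h, beside 18.1% of all genes: Rfc2, Rpa1, Rfc5, Pold1, Pole, Mcm3, Pola1, Lig1 and Mcm2. The 3 members that lay below wild type were Ccne1, Pcna and Fen1.

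**Figure D4:**
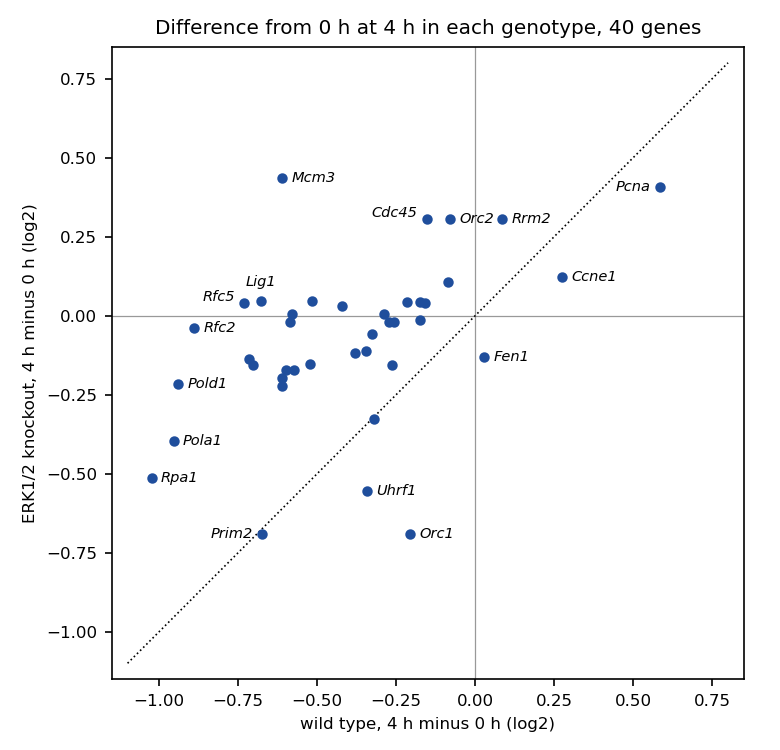
Log2 difference between 4 h and 0 h in wild type (horizontal) and in the ERK1/2 knockout (vertical) for 40 members, 1 array for each genotype and time, with a dotted line of equal differences. In wild type 36 of 40 members lie left of 0 (29 of 40 relative to the median of all genes). Rpa1 (-1.02 and -0.51) and Pola1 are low on both axes, Mcm3 is low in wild type (-0.61) and high in the knockout (0.43), and Orc1 and Uhrf1 are among those below the line.

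Linear models over all 6 arrays, fitted with limma to 11153 genes, gave the tests that this design allows. The hCG and genotype tests came from a model that adds time and genotype. Its residual is how much the genotype difference varies between times. For the test of the response between genotypes, the 2.5 h and 4 h arrays of a genotype were put in 1 group. There the difference between those times stands in for replicate error. Neither residual is the spread between animals. The hCG test, the mean of 2.5 h and 4 h minus 0 h over both genotypes, called 1135 genes (10.2%) at a Benjamini-Hochberg adjusted p of 0.05 and 0 members. The nearest were Rpa1, with a log2 difference of -0.67 ± 0.16 (SE; adjusted p = 0.057, limma), lower at 4 of 4 arrays after hCG, and Pcna, at 0.56 ± 0.15 (adjusted p = 0.067, limma), higher at 4 of 4. Unadjusted p-values under 0.05 were found for 9 members, beside 30.1% of all genes: those 2 and Uhrf1, Prim2, Orc1, Pold1, Pola1, Pola2 and Rfc1. The genotype test over 3 times called 4 genes (0.0359%) and 0 members. Unadjusted p-values under 0.05 were found for Rpa1, Pola1 and Mcm7, all higher in the knockout, beside 17.4% of all genes. The test of whether the hCG response differed between genotypes called 0 genes and 0 members, and at an unadjusted p under 0.05 it had 0 members and 1015 genes (9.1%). In simulated data with 200 of 11153 genes changed, the hCG test, the genotype test and this last test each recovered 0% of genes changed 2-fold. The hCG test called 1135 genes in the data, so its cut-off was less strict there and the simulated share does not describe it. With 1 array per group, that 0 members were called does not show that they were unchanged. With 2 residual degrees of freedom the last test cannot call differences as small as the members', so whether the genotypes differed in response was not settled by it.

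Where a member had several probe sets over the floor, how often the second had the sign of the brightest varied with the comparison. Of 26 members with 2 or more over the floor, it did in 21 in wild type at 2.5 h and 24 at 4 h, in 17 and 20 in the knockout, and in 18, 19 and 23 between genotypes at 0 h, 2.5 h and 4 h. Between 4 h and 2.5 h it did in 21 in wild type and 17 in the knockout. The second probe sets' medians were -0.34 in wild type at 4 h and 0.19 for the knockout minus wild type at 4 h. The exceptions in wild type at 4 h were Fen1 and Cdt1 (-0.26 by the brightest and 0.02 by the second). The probe sets for Mcm5, Pold1, Fen1, Rrm2 and Ccne1 carry the suffix for probes that can match other transcripts. Pold1 and Ccne1 had the same sign in their other set in wild type at 4 h and between genotypes at 4 h, and Fen1 had neither. The other set of Mcm5 turned sign in the knockout (0.24 against -0.06 at 4 h), and that of Rrm2 between genotypes at 4 h (-0.02 against 0.14).

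**Figure D5:**
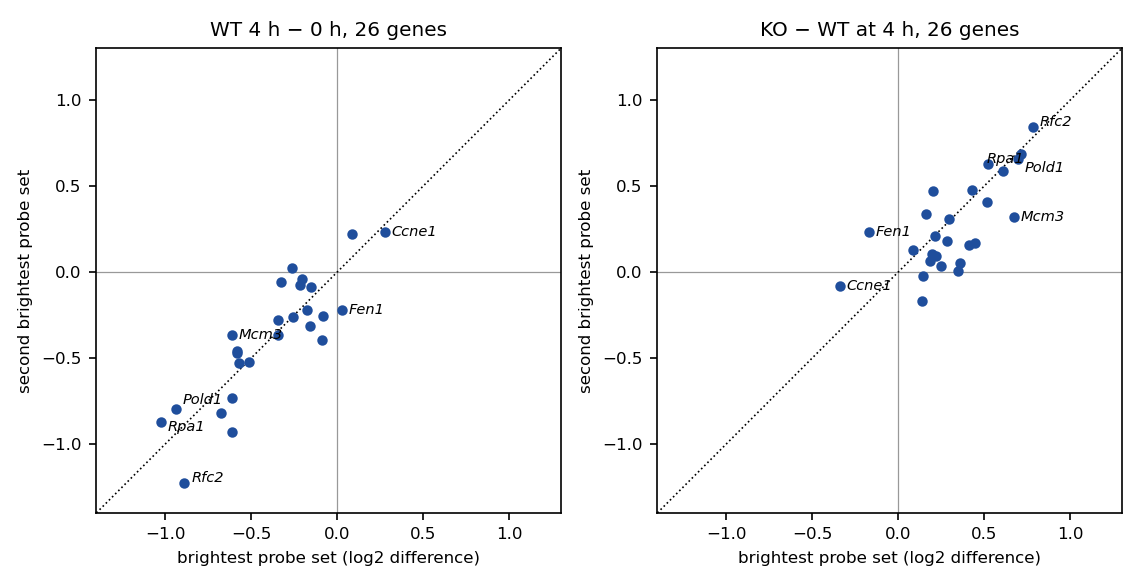
Log2 difference by the brightest (horizontal) and second brightest (vertical) probe set of 26 members, for wild type at 4 h minus 0 h (left) and the knockout minus wild type at 4 h (right), with a dotted line of equality. The points run along the line. Rfc2 is at -0.89 and -1.23 in the left panel, and Fen1 changes sign in both.

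Other replication genes, 46 measured of a list of 47, gave medians near those of the members. In wild type at 4 h, 38 lay below 0 h with a median of -0.38 (-0.17 relative to all genes), and 38 lay above wild type in the knockout at 4 h (0.34, or 0.14 relative to all genes). Top1, the topoisomerase that relieves the twist ahead of the fork, was the exception at 2-fold or more, at 2601, 5707 and 7013 in wild type and 2633, 3339 and 3100 in the knockout. It was 2.70-fold higher at 4 h in wild type, while Mcm8 was 2.25-fold lower (133, 81 and 59). Mitosis genes gave 33 of 34 below 0 h in wild type at 4 h (median -0.42), and relative to all genes 28 of 34 (median -0.22). The 2 past 2-fold, beside 9.11% of all genes, were Mki67, the proliferation marker (4406 to 2058), and Ccnb2, cyclin B2 (1956 to 686). S phase checkpoint and recombination genes gave 18 of 18 below (median -0.54), and relative to all genes 16 of 18 (median -0.34). Among them 4 were past 2-fold beside 9.11% of all genes, including Chek2, Fanca and Atr. These lists were lower in the knockout at 4 h too, relative to all genes. There 15 of 18 checkpoint and recombination genes were lower (median -0.41) and 23 of 34 mitosis genes (-0.16). Of the other replication genes 31 of 46 were lower (-0.13), as 31 of 46 were in wild type.

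Of 16 cyclin D and cell cycle inhibitor genes over the floor, the 2-fold size was reached in wild type at 4 h by 4 that were higher and 1 that was lower, and in the knockout by 5 and 1, beside 14% and 8.44% of all genes in either direction. Cdkn1a, the inhibitor p21, was 3.47-fold higher at 4 h in wild type and 3.51-fold in the knockout, and Btg1, an antiproliferative factor, 4.95-fold and 5.31-fold. Of the E2F, DP and pocket protein genes, 2 of 12 were lower at 2-fold or more in wild type at 4 h, beside 9.11% of all genes: Rbl2, the pocket protein p130 (258 to 96), and Tfdp2, a partner of E2F (1700 to 776). Relative to all genes that list's median was -0.04, with 6 of 12 lower.

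Members whose promoter windows held an E2F word were lower in wild type at 4 h in 12 of 12 cases, with a median of -0.38. Without a word, 16 of 20 were lower, with a median of -0.30. Of all genes 66.4% were lower, with a median of -0.21. Relative to that median Orc1, which has a word, was at 0 and Rfc3, which also has one, at -0.0093. At 4 h the knockout minus wild type, with the shift of all genes left in, was above 0 in 12 of 12 with a word (median 0.39) and in 17 of 20 without (median 0.22). These windows were searched for letters and hold no measurement of E2F binding.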

How the data were processed

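Transcripts were measured in 6 samples, 1 Affymetrix array per genotype and time, from biotin-labelled cRNA made from 5 ug of total RNA, per the labels. The deposited table holds 1 linear intensity per probe set, a whole number from 9 to 59425, made by the authors with RMA in affy, per the submitters' processing notes. The sources used here give no versions. Every array had a median of 54 or 55, because RMA equalises the arrays by quantiles, which hides a change in RNA content per cell. Tests had been planned for log2 values, so the log2 of each deposited intensity was taken and the tests were kept.

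The annotation pairs 34958 of 45101 probe sets with 1 gene symbol and 932 with several, and leaves 9211 unnamed. Each gene was represented by its brightest probe set, and genes with a mean of at least log2 6 were kept. The size rule was 2-fold with the brighter array at log2 6 or more. Differences relative to all genes have the median difference of the 11153 genes taken out. Linear models were fitted to all 6 arrays with limma 3.58.1 in R 4.3.3, with 2 residual degrees of freedom, and the code was checked on simulated data. Alternatives covered normalization, centring, the choice of probe set, the fold and the floor, the 0 h array and the arrays in the model.

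The members, the lists and the tests were chosen with earlier results of these data known. Members described array by array were those past 2-fold in any comparison and the brightest of each role; further members were added after their values were seen. Of each other list at most 3 genes per comparison were named, those with the largest difference among those past 2-fold. The number of arrays limits the precision of every value.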

Additional observations from a re-analysis of the deposited data

Results flagged for a closer look

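In 8 members both wild type arrays after hCG lay below the 0 h array and both knockout arrays after hCG lay above theirs, beside 15.5% of all genes. The 2.5 h and 4 h differences of a genotype share its 0 h array. The response in the knockout minus that in wild type, as the mean of 2.5 h and 4 h, was 0.80 on the log2 scale for Mcm3, 0.60 for Lig1, 0.52 for Cdc6, 0.45 for Cdc45, 0.43 for Orc2, 0.32 for Orc6, 0.31 for Mcm10 and 0.22 for Rrm1. Mcm3, a helicase subunit gene, had the largest value, and its 0 h array in the knockout was the lower of the 2 arrays at 0 h (910 against 1181). The limma test of the difference in response between genotypes called 0 of these members and had 0 members at an unadjusted p under 0.05, beside 1015 of 11153 genes, but with 2 residual degrees of freedom it cannot call differences of this size. A second probe set of Orc2 was below 0 h in the knockout as well (-0.05 and -0.12). With each array centred on its median, a check added after the data were seen, 3 of the 8 (Lig1, Cdc6 and Orc6) kept the opposite directions, and after cyclic loess 1 (Cdc6) did.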

How the results depend on the processing

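The count of members past 2-fold in wild type at 4 h was 1 as reported and was 0 after cyclic loess, 0 after median centring and 2 against the knockout's 0 h array; with that array it was 1 at 2.5 h. A fold of 1.5 gave 3 and 15 in wild type at 2.5 h and 4 h, 1 at 4 h against 2.5 h, 3 and 2 in the knockout at 2.5 h and 4 h, and 9 between genotypes at 4 h. The limma hCG test called 1 member, Rpa1, when the prior variance followed a trend with level (adjusted p = 0.045), and 0 under its other settings. The members' median in wild type at 2.5 h was -0.088 after cyclic loess and -0.047 centred, and at 4 h -0.18, -0.16 and, against the knockout's 0 h array, -0.44. Between genotypes it was 0.077 and 0.093 at 2.5 h and 0.14 and 0.12 at 4 h, or 0.19 with second probe sets. In the knockout at 4 h against 2.5 h it was -0.048, -0.048 and, with second probe sets, -0.058. The medians near 0 changed sign in 3 of 58 alternatives. Of 119 alternative values of single genes at 1.5-fold or more, 109 moved by less than the spread between probe sets. For the 33 centred values this was fixed in advance, because centring shifts every gene by less than that spread. The mean of all probe sets likewise repeats the value of a gene with 1. By the second probe set 15 values stayed within the spread, 3 moved and 2 reversed. Those 2 were Orc1 in the knockout, which turned to 0.20 at 2.5 h and 0.036 at 4 h. Relations that rest on the level of all genes, such as the share of members below 0 h, therefore depend on the scaling. No paired analysis was possible because each group has 1 array and no replicate number links samples, and no replicate could be left out; the genotype test does compare the arrays of the same time. Signal near the floor limits Orc1, E2f1, Rfc3 and Tyms.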
